A study of Mus musculus with 20 samples.

Results

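The immunoglobulin heavy (Igh), kappa (Igk) and lambda (Igl) loci were followed in B3 cells, a mouse line with a pre-B cell profile, after nuclear entry of IKZF1 was switched on. Members were the genes whose symbols begin with Ighv, Ighj, Igkv, Igkj, Iglv or Iglj, together with Ighm, Igkc, Iglc1, Iglc2 and Iglc3, that had 10 or more counts in at least 2 of the 20 libraries. Of 367 such genes in the count table, 112 met this rule, out of 16601 genes that met the same filter genome-wide. They comprised 47 of 190 heavy chain genes, 63 of 166 kappa genes and 2 of 11 lambda genes. Another 172 had counts but stayed below the filter, and 83 had no count in any library. Members were thus chosen by the counts themselves, and a gene could become a member through late or early libraries alone. Among kappa members, 46 of 63 reached 10 counts in no library before 6 h, whereas 10 heavy chain members reached it only from 0 to 2 h. Just inside the threshold lay 10 V segments, among them Ighv7-2 and Ighv9-4, whose second highest count was 10 to 16. The 15 V segments just outside, with 10 or more counts in 1 library, had a second highest count of 5 to 9.

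All libraries came from B3 cells, originally lymphoma-derived, that carried a retroviral IKZF1-ERt2 construct and were sorted for the GFP encoded beside it. ERt2, a modified oestrogen receptor domain, keeps the fusion protein out of the nucleus in the absence of its ligand 4-hydroxytamoxifen (4-OHT). A pair of libraries was made at each of 10 time points, untreated cells (0 h) and cells given 4-OHT at 500 nM for 0.5, 1, 2, 6, 12, 15, 18, 21 or 24 h. RNA bound to chromatin, which is enriched in nascent transcripts, was sequenced, so that the values describe RNA still at the gene more than mature mRNA. No vehicle series is among these libraries, so effects of IKZF1, of 4-OHT and of time in culture cannot be told apart. Nor can fewer cells transcribing a gene be told apart from less RNA per cell.

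Antibody genes are assembled during B cell development from variable (V), diversity (D, in the heavy chain only) and joining (J) segments, which are cut and joined upstream of a constant (C) gene. The heavy chain is assembled first and pairs with the surrogate light chain, made of Igll1 and Vpreb proteins, to form the pre-B cell receptor, and kappa or lambda recombination follows. Before recombination the unrearranged segments are transcribed as germline, or sterile, transcripts, and IKZF1 is known as a regulator of this developmental step.

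Total counts ran from 33296158 to 46868954 for each library, with a median of 40943260. A count of 0 in a library allows up to 3 counts, or 0.0620 to 0.102 CPM (counts-per-million, scaled by TMM factors), and such limits cover counting error only. Replicates differed by a chi-square per degree of freedom of 1.26 to 2.58 at 0 to 6 h, 15 h and 24 h, against 9.95 at 12 h, 14.9 at 18 h and 4.78 at 21 h. Summed B lineage markers stood at 7873 to 16140 CPM, T cell markers at 6.68 to 25.5 CPM, myeloid markers at 0.194 to 1.62 CPM and erythroid markers at 0.173 to 0.677 CPM, with Cd2, Itgam, S100a8, S100a9, Hba-a2 and Hbb-bs at 0. Plasma cell markers summed to 21.6 to 35.5 CPM, most of it from Xbp1, while Prdm1, Sdc1 and Mzb1 had at most 9, 8 and 2 counts in a library. Ikzf1, whose counts may hold reads of the transgene (not tested), was at 4837 to 4843 CPM at 0 h and 8378 to 9225 CPM at 24 h.

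Several zeros in these loci came from the counting and were not measurements. In GENCODE M21 (GRCm38), genes lying wholly inside another gene had no count in any library in 6475 of 6477 cases on the same strand and 6261 of 6267 on the opposite strand, against 11264 of 30194 genes without overlap. Zeros fell on enclosed genes of either strand, as they would where reads are counted over whole genes without regard to strand and reads shared between genes are dropped. Igkc and Igkj1 to Igkj5 lie inside Gm30211, and Iglc1, Iglc3, Iglv1 and 4 lambda J genes lie inside 2010309G21Rik or Iglc2. These genes, like Rag1 and Rag2, which lie inside B230118H07Rik, were listed at 0 in all libraries, and those zeros say nothing of their transcription. The kappa locus was therefore measured through its V segments alone, and sense and antisense transcripts of a V segment cannot be told apart.

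The heavy chain J segments and the V segments on which the heavy chain results turn are shown from the GENCODE M21 transcripts, 5′ to 3′. Capitals in the J segments mark TGGGGNNNNGGN, the codons of the Trp-Gly-X-Gly motif that ends the assembled variable region. For each J gene only its longest annotated transcript is shown. For Ighj2 this transcript has 54 bases, fewer than the span given, and does not hold these letters. The rest of the Ighj2 span was not examined, so the bases shown may not be the J segment itself.
Ighj1, chr12:113429781-113429833, minus strand: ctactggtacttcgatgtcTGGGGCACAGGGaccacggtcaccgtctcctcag
Ighj2, chr12:113429468-113429567, minus strand: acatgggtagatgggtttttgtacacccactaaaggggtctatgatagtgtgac
Ighj3, chr12:113429085-113429132, minus strand: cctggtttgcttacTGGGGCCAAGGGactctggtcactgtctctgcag
Ighj4, chr12:113428514-113428567, minus strand: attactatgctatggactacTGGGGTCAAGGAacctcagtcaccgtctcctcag

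Ighv14-4 and Ighv1-15 rose, and Ighv7-3, a functional V segment that lies between Ighv14-3 and Ighv14-4 on the chromosome, fell. Bases 52 to 351 of each coding sequence are given, and capitals mark bases that differ from Ighv14-4.
Ighv14-4, chr12:114176438-114176867, minus strand: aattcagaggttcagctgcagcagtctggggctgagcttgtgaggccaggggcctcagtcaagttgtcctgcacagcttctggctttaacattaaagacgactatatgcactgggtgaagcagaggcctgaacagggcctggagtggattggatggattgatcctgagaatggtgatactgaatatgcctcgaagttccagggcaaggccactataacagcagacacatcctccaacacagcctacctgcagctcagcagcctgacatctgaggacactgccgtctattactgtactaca
Ighv14-1, chr12:113931953-113932382, minus strand: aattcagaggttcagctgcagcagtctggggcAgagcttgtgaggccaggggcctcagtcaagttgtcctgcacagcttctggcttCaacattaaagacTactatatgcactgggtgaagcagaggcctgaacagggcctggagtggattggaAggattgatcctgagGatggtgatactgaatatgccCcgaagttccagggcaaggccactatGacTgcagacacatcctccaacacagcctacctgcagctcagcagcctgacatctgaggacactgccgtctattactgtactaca
Ighv14-2, chr12:113994469-113994898, minus strand: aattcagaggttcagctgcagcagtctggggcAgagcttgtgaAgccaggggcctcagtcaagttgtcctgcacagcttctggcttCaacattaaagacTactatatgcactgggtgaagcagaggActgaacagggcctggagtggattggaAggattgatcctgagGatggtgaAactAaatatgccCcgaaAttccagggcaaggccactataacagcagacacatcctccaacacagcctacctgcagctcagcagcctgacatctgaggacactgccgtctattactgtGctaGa
Ighv14-3, chr12:114059845-114060321, minus strand: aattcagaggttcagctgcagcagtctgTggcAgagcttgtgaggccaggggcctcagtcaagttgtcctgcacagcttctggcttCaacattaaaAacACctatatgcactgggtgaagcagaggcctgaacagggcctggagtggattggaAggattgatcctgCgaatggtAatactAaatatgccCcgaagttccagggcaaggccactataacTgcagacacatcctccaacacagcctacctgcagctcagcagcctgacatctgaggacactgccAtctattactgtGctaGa
Ighv1-15, chr12:114657353-114657786, minus strand: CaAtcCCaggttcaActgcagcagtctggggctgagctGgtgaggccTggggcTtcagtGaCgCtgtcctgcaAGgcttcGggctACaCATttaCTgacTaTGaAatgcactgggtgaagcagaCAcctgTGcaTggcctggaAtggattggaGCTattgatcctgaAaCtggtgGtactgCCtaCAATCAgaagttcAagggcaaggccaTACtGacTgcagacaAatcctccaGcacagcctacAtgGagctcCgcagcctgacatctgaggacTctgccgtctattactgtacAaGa
Within this stretch Ighv14-1 differed from Ighv14-4 at 8 bases, Ighv14-2 at 13, Ighv14-3 at 15 and Ighv1-15 at 59. Over the whole coding sequences the 4 Ighv14 genes were 95.2 to 97.4% identical, with unbroken shared runs of 63 to 99 bases, and Ighv1-15 was 78.1 to 80.6% identical to them, with runs of at most 23 bases. Reads were 75 bases long, so some read placements among the Ighv14 genes are uncertain. Ighv7-3 is shown without comparison, since it was 56.2% identical to Ighv1-15 and shared runs of at most 10 bases with it.
Ighv7-3, chr12:114153180-114153644, minus strand: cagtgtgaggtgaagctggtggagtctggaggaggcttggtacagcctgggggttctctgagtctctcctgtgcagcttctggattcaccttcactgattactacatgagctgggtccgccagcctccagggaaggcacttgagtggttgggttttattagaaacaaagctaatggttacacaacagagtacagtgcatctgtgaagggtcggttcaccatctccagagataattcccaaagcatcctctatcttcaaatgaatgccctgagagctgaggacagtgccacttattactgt

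In the kappa locus, the neighbours Igkv4-71 and Igkv4-72 took different courses, Igkv4-71 staying near its starting level and Igkv4-72 rising from near 0. They were 94.6% identical, and capitals in Igkv4-72 mark its 18 differences from Igkv4-71 in the stretch shown. Among members without a count at 0 h, Igkv2-109 had the highest lower bound on its fold change at 24 h and is shown for that.
Igkv4-71, chr6:69243158-69243688, minus strand: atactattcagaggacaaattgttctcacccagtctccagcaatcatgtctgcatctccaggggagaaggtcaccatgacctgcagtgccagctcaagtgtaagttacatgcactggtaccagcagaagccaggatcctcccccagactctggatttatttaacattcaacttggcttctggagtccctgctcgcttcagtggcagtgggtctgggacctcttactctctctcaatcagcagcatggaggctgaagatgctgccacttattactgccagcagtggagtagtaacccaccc
Igkv4-72, chr6:69226854-69227433, minus strand: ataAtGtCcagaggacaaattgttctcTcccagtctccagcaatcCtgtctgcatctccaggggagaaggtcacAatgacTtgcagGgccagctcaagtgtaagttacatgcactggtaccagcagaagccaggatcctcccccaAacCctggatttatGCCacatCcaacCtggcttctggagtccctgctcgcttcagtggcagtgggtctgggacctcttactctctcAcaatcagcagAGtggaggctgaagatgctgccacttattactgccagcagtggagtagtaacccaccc
Igkv2-109, chr6:68302427-68303158, plus strand: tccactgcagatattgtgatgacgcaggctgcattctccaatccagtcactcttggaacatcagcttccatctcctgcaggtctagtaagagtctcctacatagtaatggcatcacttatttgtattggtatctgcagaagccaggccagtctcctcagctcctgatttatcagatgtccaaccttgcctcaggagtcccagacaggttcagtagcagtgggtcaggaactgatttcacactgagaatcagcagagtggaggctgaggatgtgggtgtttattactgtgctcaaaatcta
Among V segments that passed the filter, the median share of 75-base windows found in no other annotated gene was 97.6% in the heavy chain locus and 96.9% in the kappa locus, with lowest values of 57.5% and 52.5%. Igkv4-71 had 79.3% and Igkv4-72 had 96.0%.

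The summed levels of the 3 loci were all higher at 24 h than at 0 h, each with its own timing. The sum over all 190 heavy chain genes was 255 ± 0.774 CPM at 0 h (SD, n = 2) and 794 ± 30.7 at 24 h, or 3.12 times the starting mean. Ighm alone stood at 180 CPM at 0 h and 610.5 at 24 h, so this sum was mostly that gene. The heavy chain V sum first fell, from 55.9 ± 0.280 CPM at 0 h to 38.5 ± 0.049 at 2 h. It was 42.8 ± 0.808 at 6 h and 108 ± 3.29 at 24 h. The kappa sum went from 17.8 ± 0.257 CPM at 0 h through 57.3 ± 1.66 at 6 h to 116 ± 13.1 at 18 h and was 103 ± 5.03 at 24 h. The lambda sum was 1 count over both 0 h libraries together and reached 7.06 ± 1.19 CPM, or 494 counts, at 24 h.

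In single libraries, given throughout as replicate 1/replicate 2, the summed heavy chain level was 254/255 CPM at 0 h, 309/295 at 0.5 h, 317/309 at 1 h, 345/342 at 2 h, 404/396 at 6 h, 493/484 at 12 h, 624/614 at 15 h, 577/605 at 18 h, 694/682 at 21 h and, last, 816/772 at 24 h. From 6 h on, every library lay above every library of 0 to 2 h, and the 18 h libraries lay below those of 15 h. The summed kappa level was 17.6/18.0 CPM at 0 h, 22.4/23.2 at 0.5 h, 20.7/21.2 at 1 h, 29.1/29.8 at 2 h, 56.1/58.4 at 6 h, 106/93.5 at 12 h, 98.6/98.2 at 15 h, 106/125 at 18 h, 115/106 at 21 h and, last, 99.2/106 at 24 h. The 0 to 1 h libraries lay below those of 2 h, which in turn lay below every later one, and libraries from 12 h on overlapped. The summed lambda level was 0.0216/0 CPM at 0 h, 0/0 at 0.5 h, 0/0 at 1 h, 0/0.0231 at 2 h, 0.350/0.323 at 6 h, 1.81/0.972 at 12 h, 2.50/1.99 at 15 h, 4.56/5.45 at 18 h, 6.24/5.81 at 21 h and, last, 7.90/6.21 at 24 h. Lambda counts stood at 0 or 1 in each library to 2 h, and each group from 6 to 18 h lay above the one before it. Of 5 plasma cell markers listed, 2 were tested. Only Jchain, which encodes the joining chain of secreted IgM and IgA, was called higher at 24 h. It went from 0.165 ± 0.0107 CPM at 0 h through 0.764 ± 0.195 at 2 h to 13.0 ± 1.53 at 18 h and 5.79 ± 0.586 at 24 h (SD, n = 2), a log2 change of 5.10 ± 0.259 (SE) with an adjusted p of 6.50e-14 at 24 h, and was called higher from 2 h on. Xbp1, the other marker tested, was at 22.18/21.09 CPM at 0 h, 29.79/30.62 at 2 h and 21.05/20.48 at 24 h. Any part of Jchain in the immunoglobulin results was not tested.

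**Figure D1:**
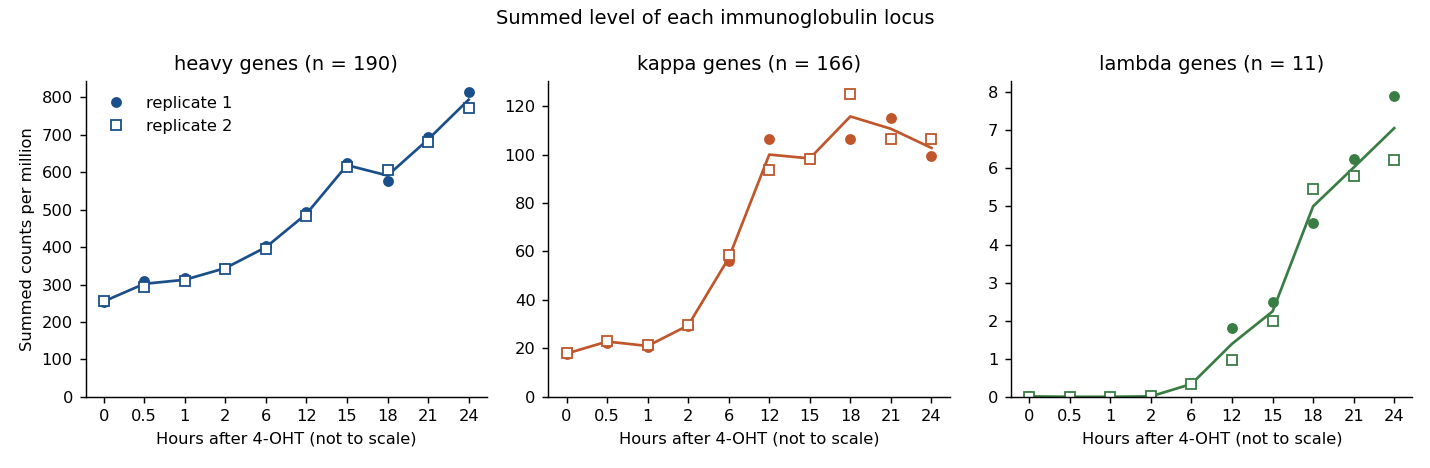
Summed CPM of all counted heavy (n = 190), kappa (n = 166) and lambda (n = 11) genes (vertical axes, each on its own scale) against hours after 4-OHT, with the time points evenly spaced. Filled circles are replicate 1, open squares replicate 2 and lines the mean of both. The heavy chain sum, mostly Ighm, climbs from 0.5 h with a dip at 18 h. The kappa sum climbs from 2 h to a plateau at 12 to 24 h, and the lambda sum from 6 h.

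The balance between the loci shifted within each library, which is independent of library scaling. Kappa counts were 7.0% ± 0.0796 of heavy chain counts at 0 h, 20.4% ± 1.61 at 12 h and 13.0% ± 1.14 at 24 h (SD, n = 2). Counted over V segments alone, the ratio of kappa to heavy chain counts was 31.9% ± 0.619 at 0 h, 167% ± 4.55 at 12 h and 95.3% ± 7.56 at 24 h. On neither scale did these groups overlap. Over all genes the libraries of 12 h (21.6/19.3%) and 18 h (18.5/20.7%), whose replicates were least alike, overlapped, and over V segments both 12 h libraries lay above all others. Lambda counts were 0.589% ± 0.0502 of kappa counts at 6 h and 6.90% ± 1.5 at 24 h. Of the 494 lambda counts at 24 h, 444 were of the constant gene Iglc2, whereas kappa counts were of V segments alone. Over V segments alone, lambda counts were 0.293% ± 0.00268 of kappa counts at 6 h and 0.6645% ± 0.0376 at 24 h. These ratios compare counts, not levels per length, and no test was made on sums over chosen members.

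Member by member, calls were made with edgeR against 0 h at an adjusted p under 0.01 (Benjamini-Hochberg over all 16601 genes) and a fold change above 2. Of the 112 members, 99 changed over the time course (36 heavy, 61 kappa and 2 lambda), where 51.9% of all genes tested did. At 0.5 h 1 member was higher, against 0.0542% of all genes, and none was lower, against 0.410%, although 5 were lower at an unadjusted p under 0.05 and DESeq2 also called none. At 1 h 3 kappa members were higher (2.33% of all genes) and 9 heavy chain members were lower (4.84%). These early counts rested on few libraries. Without the second 0 h library or the second 0.5 h library no member was called higher at 0.5 h, with either 0 h library left out 1 was called higher at 1 h, and without the first 1 h library 5 members were called lower at 1 h. DESeq2 called 4 members lower at 1 h, 5 at 2 h and 9 at 6 h. At 2 h 20 kappa members were higher (6.25%), and 9 heavy chain members and 1 kappa member were lower (6.91%). The count of 20 was 8 without the first 0 h library, 9 without the second and 12 without the second 2 h library. Among these members the first calls went in opposite directions in the heavy chain and kappa loci. At 0.5, 1 and 2 h no heavy chain member was called higher by edgeR or DESeq2. At an unadjusted p under 0.05, 5, 6 and 7 were higher. The filter favoured this contrast. Many of these kappa members, such as Igkv2-109, reached 10 counts only from 6 h on, and several of the heavy chain members, such as Ighv9-1, only from 0 to 2 h. Ighv7-3 and Igkv14-111 reached 10 counts in both periods.

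At 6 h 4 heavy, 50 kappa and 1 lambda member were higher (10.9% of all genes), and 13 heavy and 1 kappa member were lower (9.13%). Members higher at 12 h numbered 13 heavy, 55 kappa and 2 lambda (13.2%), with 12 heavy chain members lower (9.92%). Without the second 6 h library 9 members were lower at 6 h, and without the second 12 h library 7 were at 12 h. At 15 h the higher members were 13 heavy, 57 kappa and 2 lambda (15.3%) and the lower ones 13, all heavy (13.1%). At 18 h 16 heavy, 57 kappa and 2 lambda members were higher (19.1%) and 11 heavy chain members lower (17.6%), and at 21 h 20 heavy, 56 kappa and 2 lambda members were higher (20.1%) and 9 heavy chain members lower (19.4%). At 24 h 20 heavy, 51 kappa and 2 lambda members were higher (20%). Lower were 9 of 47 heavy chain members, close to the share of all genes (20.1%). No kappa member was called lower from 12 h on by edgeR or DESeq2, with 2 at 12 h, 2 at 15 h and 0 from 18 h on at an unadjusted p under 0.05. Without the 12 h and 18 h libraries, whose replicates were least alike, 75 members were higher and 10 lower at 24 h, and 99 changed over the remaining time course. The filter chose members in part by these changes, so the counts are a description. Of the 9 heavy chain members lower at 24 h, 7 were among the 10 that reached 10 counts only from 0 to 2 h, and of the 20 higher, 10 were among the 11 that reached it only from 6 h on. Of the 51 kappa members higher at 24 h, 40 were among the 46 that reached 10 counts only from 6 h on. Among members that reached it in both periods, 10 of 26 heavy chain members were higher and 2 lower, and 11 of 17 kappa members were higher. The median log2 change at 24 h was 0.54 over heavy chain members and 5.95 over kappa members, or 2.74 with the 29 kappa members at 0 in both 0 h libraries set to their bounds, against -0.01 over all genes.

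**Figure D2:**
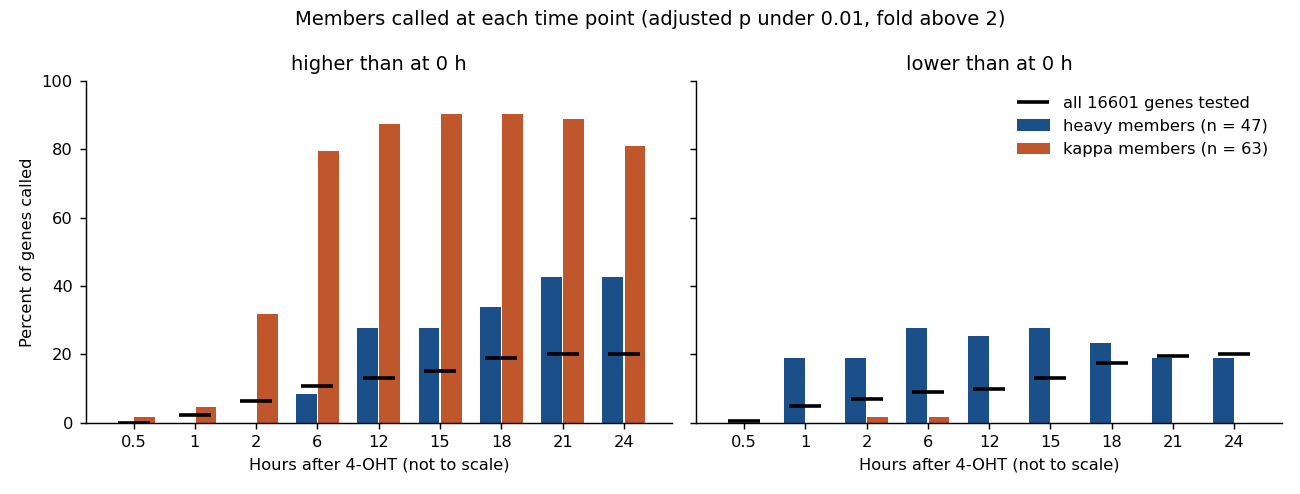
Percent of heavy (n = 47, blue) and kappa (n = 63, orange) members called higher (left) or lower (right) than at 0 h, against hours after 4-OHT. Black marks give the percent of all 16601 genes tested. Kappa bars in the left panel pass the black marks at each time point, and lower calls come almost wholly from heavy chain members.

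The heavy chain constant gene and its J segments rose together and gradually. Ighm (chr12:113418558-113422730, minus strand) encodes the constant region of IgM. Its level was 179/181 CPM at 0 h, 232/217 at 0.5 h, 248/242 at 1 h, 277/275 at 2 h, 325/321 at 6 h, 377/382 at 12 h, 502/491 at 15 h, 442/442 at 18 h, 516/517 at 21 h and, last, 627/594 at 24 h. Every library after 0 h lay above both 0 h libraries, and only those of 18 h broke the climb. The log2 change was 0.61 ± 0.0362 (SE) with an adjusted p of 3.90e-12 at 2 h, below the 2-fold requirement, and 1.76 ± 0.0366 (SE) with an adjusted p of 1.03e-20 at 24 h, and Ighm was called higher from 12 h on.

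Ighj4, the J segment nearest to Ighm, was at 7.95/8.08 CPM at 0 h, 8.58/9.98 at 0.5 h, 12.2/12.9 at 1 h, 13.4/13.7 at 2 h, 15.9/15.6 at 6 h, 24.9/22.6 at 12 h, 22.4/24.8 at 15 h, 26.9/31.9 at 18 h, 33.8/35.9 at 21 h and, last, 40.9/37.9 at 24 h. Its replicates did not overlap between 0 h and any time point, and its log2 change at 24 h was 2.30 ± 0.0874 (SE) with an adjusted p of 3.85e-16. Ighj3 went from 4.85 ± 0.0485 to 17.2 ± 2.15 CPM (SD, n = 2), Ighj2 from 4.06 ± 0.427 to 13.3 ± 0.0245, and Ighj1, the farthest from Ighm, from 1.82 ± 0.131 to 5.57 ± 0.0310. Their log2 changes at 24 h were 1.82 ± 0.0936 (SE) with an adjusted p of 7.94e-14 for Ighj3, 1.71 ± 0.0955 (SE) with an adjusted p of 3.45e-13 for Ighj2 and 1.61 ± 0.134 (SE) with an adjusted p of 3.41e-10 for Ighj1. All 4 were called higher from 12 h on, as was Ighm. Summed J counts were 10.4% of Ighm counts at 0 h and 12.4% at 24 h. Within the J segments, Ighj4 took 42.8% of the counts at 0 h and 52.2% at 24 h, in the range of 38.8 to 52.3% over all libraries. Ighd, the IgD constant gene next to Ighm and not a member, went from 23.0 ± 0.370 to 62.9 ± 3.21 CPM, a log2 change of 1.45 ± 0.0552 (SE) with an adjusted p of 4.01e-16. The 20 annotated D segments had no count in any library, and whether these zeros came from the counting was not tested.

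Heavy chain V segments fell into stretches along the chromosome, bounded here after their values were seen. The 34 V segments nearest to the J segments, from Ighv5-1 to Ighv7-1, had no count in any library, although 32 of them lie inside no other gene and the median share of unique 75-base windows among them was 96.0%. The first segment to pass the filter, Ighv7-2, lies 482 kb from the J segments.

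From Ighv7-2 to Ighv1-17, 13 of 63 V segments passed, and they took opposite courses. Ighv1-15 and the 4 Ighv14 segments were called higher at 24 h, and 8 others, Ighv7-2, Ighv9-1, Ighv9-3, Ighv7-3, Ighv15-1, Ighv9-4, Ighv1-17-1 and Ighv1-17, were called lower. Of these 8, only Ighv7-3 and Ighv15-1 also reached 10 counts in libraries from 6 h on. The others passed the filter through libraries of 0 to 2 h alone, which favoured a fall, and Ighv7-2 had only 6/4 counts at 0 h. Ighv1-15, the V segment with the most counts, was at 12.5/11.2 CPM at 0 h, 13.2/12.4 at 0.5 h, 14.1/14.0 at 1 h, 15.1/15.9 at 2 h, 18.7/19.6 at 6 h, 34.4/27.7 at 12 h, 41.3/40.0 at 15 h, 41.7/55.5 at 18 h, 52.8/45.4 at 21 h and, last, 52.6/49.4 at 24 h. It overlapped with the 0 h libraries at 0.5 h, lay above them from 1 h and was called higher from 12 h on, with a log2 change of 2.10 ± 0.114 (SE) with an adjusted p of 2.21e-13 at 24 h.

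The Ighv14 segments moved with it. Ighv14-4 went from 2.94 ± 0.585 to 11.9 ± 1.38 CPM (SD, n = 2), Ighv14-1 from 2.56 ± 0.231 to 10.3 ± 0.224, Ighv14-2 from 1.45 ± 0.401 to 4.75 ± 0.0348 and Ighv14-3 from 0.816 ± 0.0239 to 3.64 ± 0.300. Log2 changes at 24 h were 2.02 ± 0.128 (SE) with an adjusted p of 3.23e-12 for Ighv14-4, 2.01 ± 0.121 (SE) with an adjusted p of 1.36e-12 for Ighv14-1, 1.71 ± 0.201 (SE) with an adjusted p of 9.38e-08 for Ighv14-2 and 2.16 ± 0.156 (SE) with an adjusted p of 3.17e-11 for Ighv14-3. All 4 were first called at 12 h, the time point at which Ighm and the J segments were first called. Counts of the 4 segments together came to 52.3 to 77.3% of Ighv1-15 counts over the 20 libraries, with 66.1% at 0 h and 60.1% at 24 h, so their proportion stayed within this range while the level changed. With Ighv1-15 they made up 35.1% of all heavy chain V counts at 0 h and 75.6% at 24 h. Whether the shared course reflects reads placed among similar sequences was not tested, and the longest runs shared with Ighv1-15 are given with the sequences.

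Ighv7-3 and its neighbour Ighv15-1, an annotated pseudogene, fell early and steeply. Ighv7-3 was at 11.1/11.4 CPM at 0 h, 10.8/11.2 at 0.5 h, 4.30/3.83 at 1 h, 1.80/1.62 at 2 h, 0.607/0.819 at 6 h, 0.316/0.424 at 12 h, 0.258/0.291 at 15 h, 0.113/0.181 at 18 h, 0.237/0 at 21 h and, last, 0.179/0.136 at 24 h. At 0.5 h its libraries lay with those at 0 h, and from 1 h every library lay below them. Its log2 change was -1.46 ± 0.119 (SE) with an adjusted p of 1.33e-09 at 1 h, -2.72 ± 0.143 (SE) with an adjusted p of 5.93e-13 at 2 h and -6.14 ± 0.241 (SE) with an adjusted p of 6.57e-16 at 24 h. Ighv15-1 was at 10.2/9.14 CPM at 0 h, 7.47/8.58 at 0.5 h, 3.33/3.46 at 1 h, 1.33/1.36 at 2 h, 0.560/0.474 at 6 h, 0.201/0.224 at 12 h, 0.103/0.121 at 15 h, 0.203/0.284 at 18 h, 0.136/0.217 at 21 h and, last, 0.0894/0.108 at 24 h. It lay below its 0 h libraries at each later time point, with log2 changes of -1.51 ± 0.0957 (SE) with an adjusted p of 2.34e-11 at 1 h and -6.56 ± 0.204 (SE) with an adjusted p of 1.11e-17 at 24 h. They held 20.1% (Ighv7-3) and 17.3% (Ighv15-1) of heavy chain V counts at 0 h and 0.145% (Ighv7-3) and 0.0919% at 24 h. Ighv9-1 went from 1.07 ± 0.109 CPM at 0 h to 0.122 ± 0.0243 at 2 h, and Ighv9-3 from 0.518 ± 0.0308 to 0.0869 ± 0.0247. Both were called lower from 1 h on, as were Ighv1-17-1 and Ighv1-17, whose 0 h levels were 0.374 ± 0.0826 and 0.389 ± 0.214 CPM.

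**Figure D3:**
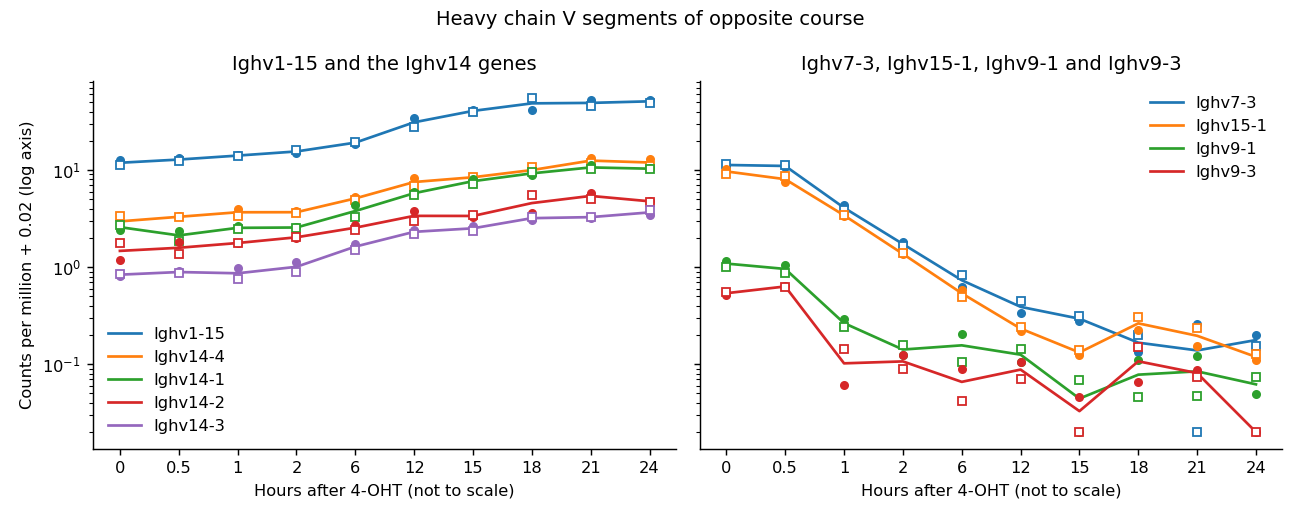
CPM + 0.02 (log axis) of heavy chain V segments against hours after 4-OHT, with filled circles for replicate 1, open squares for replicate 2 and lines for the mean of both. On the left, Ighv1-15 and the 4 Ighv14 segments climb in parallel, and on the right Ighv7-3, Ighv15-1, Ighv9-1 and Ighv9-3 drop from 1 h on.

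Beyond them, from Ighv1-23 to Ighv1-38 (1335 to 1480 kb from the J segments), 14 of 16 V segments passed, and none was called in either direction at 2 h or 24 h. Their log2 changes at 24 h ran from -0.63 to 1.17 with a median of 0.11. Their summed level was 8.06/8.31 CPM at 0 h, 4.92/5.22 at 6 h and 8.53/8.30 at 24 h. Ighv1-27 and Ighv1-28 were lower at 1 h, and Ighv1-30 and Ighv1-33 at 6 h.

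Farther out, from Ighv1-47 to Ighv8-12 (1561 to 2218 kb), 12 of 36 V segments passed, and 10 were called higher at 24 h. All of the 12 but Ighv8-12 reached 10 counts only in libraries from 6 h on. The filter thus favoured segments that rose, and those below it are left out of the sum. The summed level of the 12 was 0.734/0.743 CPM at 0 h, 1.52/2.06 at 15 h and 11.9/12.1 at 24 h, most of the rise coming after 15 h. Ighv8-7, an annotated pseudogene, was at 0/0.0225 CPM at 0 h, 0.0271/0.0223 at 0.5 h, 0.0414/0.0246 at 1 h, 0.0522/0.0463 at 2 h, 0.210/0.345 at 6 h, 0.402/0.125 at 12 h, 0.309/0.412 at 15 h, 0.812/1.19 at 18 h, 2.68/1.66 at 21 h and, last, 4.00/4.69 at 24 h. With 1 count over both 0 h libraries, its ratio of 24 h to 0 h was 396 (95% counting interval 70.5 to 15680). Ighv1-47 had no count before 2 h and was at 0.360/0.340 CPM at 15 h, 1.15/1.60 at 18 h and 1.58/1.79 at 24 h, at least 25.5-fold higher than the floor of 3 counts per 0 h library. Ighv1-69 went from 0.0446 ± 0.0325 to 1.92 ± 0.188 CPM, a log2 change of 5.35 ± 0.465 (SE) with an adjusted p of 7.62e-10. The most distant members, Ighv1-77, Ighv1-78 and Ighv1-79, stood at 0.364 ± 0.0262, 0.232 ± 0.0536 and 0.209 ± 0.0406 CPM at 0 h. Ighv1-79 was called lower at 24 h, and the other 2 were called lower at 6 h. All 3 reached 10 counts only from 0 to 2 h.

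**Figure D4:**
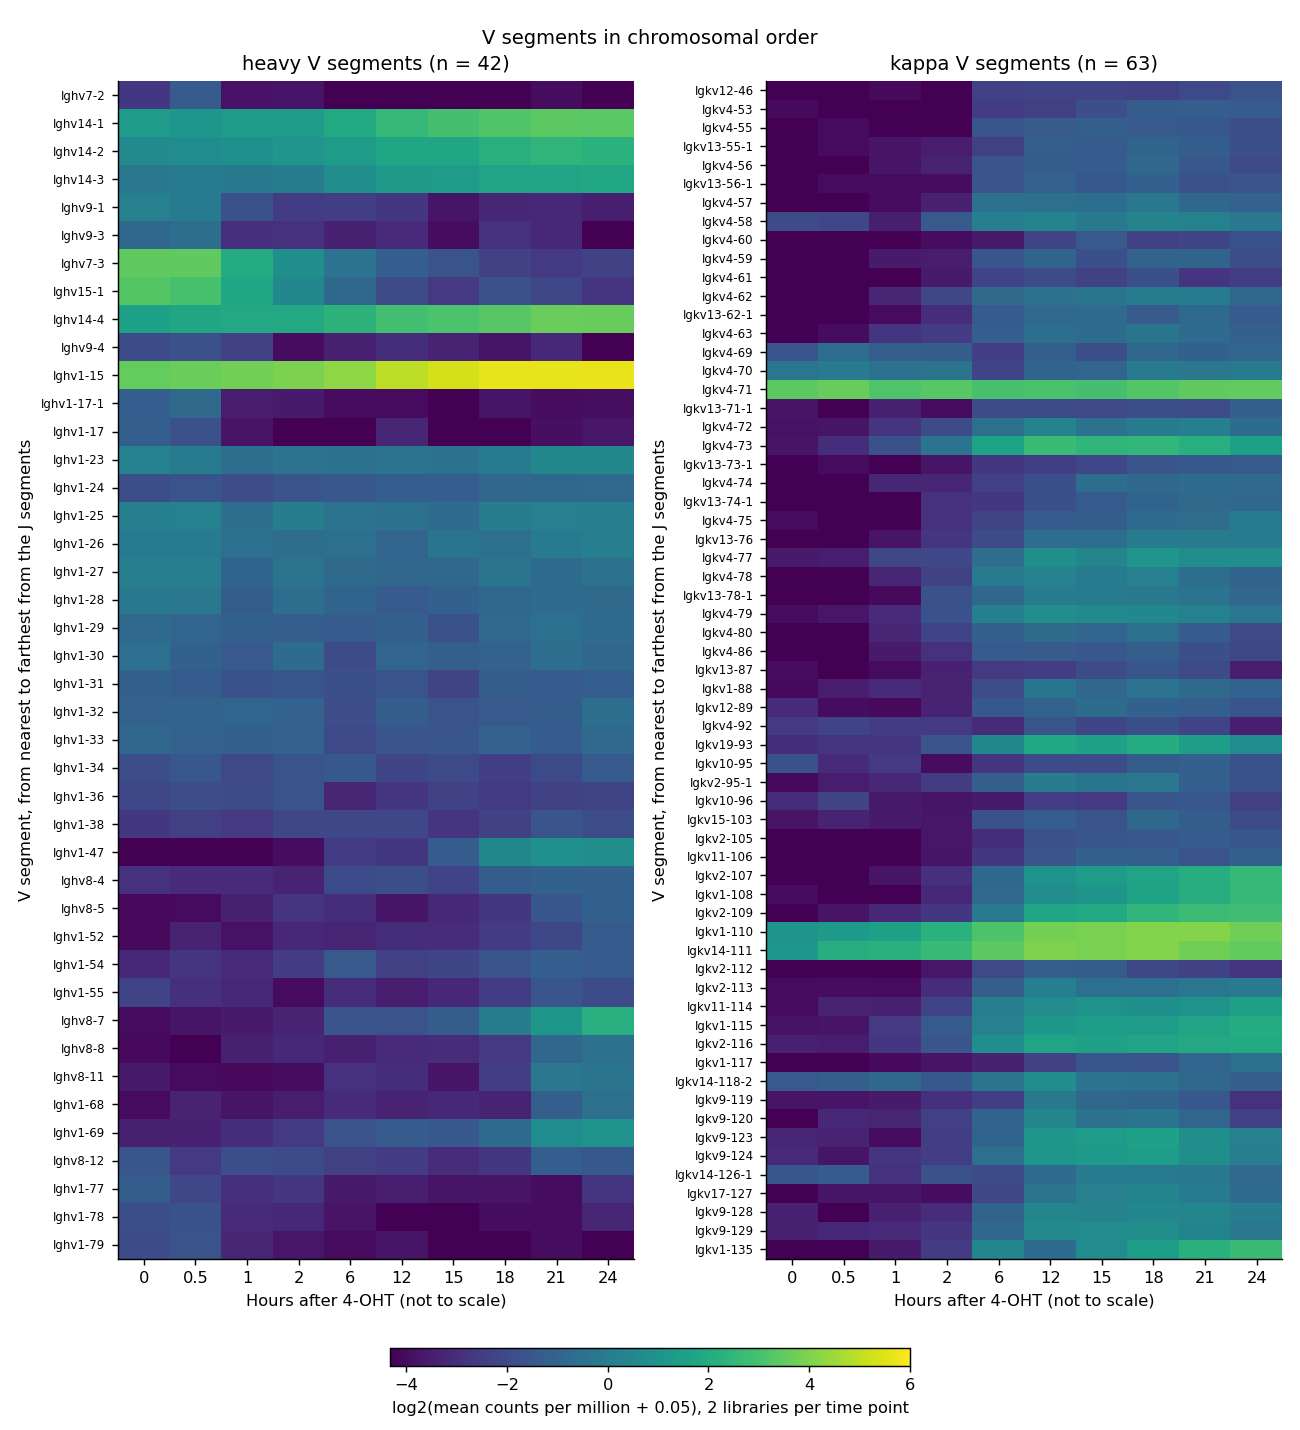
Heat map of log2(mean CPM + 0.05) for the 42 heavy (left) and 63 kappa (right) V segments that passed the filter, in rows from nearest to farthest from the J segments, and the 10 time points in columns (2 libraries each). In the heavy panel, rows that brighten (Ighv14-1 to Ighv1-15) alternate with rows that darken (Ighv7-3, Ighv15-1), and in the kappa panel most rows brighten from 2 to 6 h.

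Kappa V segments passed the filter from Igkv12-46 (958 kb from the J segments) to Igkv1-135 (3112 kb). None of the 47 nearer V segments passed, 26 of them had counts, and the highest total over 20 libraries was 31. Kappa V segments lie in both orientations, and passing segments were 33 of 75 on the plus strand and 30 of 85 on the minus strand, with 27 and 24 called higher at 24 h. By annotated class, 23 of 27 passing pseudogenes and 28 of 36 passing functional segments were called higher at 24 h. In the heavy chain locus, 2 of 14 passing pseudogenes and 13 of 28 passing functional segments were called higher, and 4 and 5 were called lower. Among all genes tested, 20% were called higher and 20.1% lower at 24 h. Differences between strands or classes were not tested.

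At 0 h, kappa counts came mainly from 3 segments. Igkv4-71, Igkv14-111 and Igkv1-110 held 81.5% of kappa V counts at 0 h and 35.4% at 24 h. Of the 63 kappa members, 27 and 29 had any count in the 0 h libraries, and 62 or 63 did in each library from 6 h on.

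Igkv4-71 (chr6:69243158-69243688, minus strand) was at 10.0/10.9 CPM at 0 h, 11.5/12.4 at 0.5 h, 8.73/8.99 at 1 h, 9.63/10.1 at 2 h, 8.19/7.76 at 6 h, 8.65/7.53 at 12 h, 7.96/7.28 at 15 h, 8.41/10.5 at 18 h, 12.1/10.2 at 21 h and, last, 10.6/12.1 at 24 h. Libraries at 1, 6, 12 and 15 h lay below both 0 h libraries, those at 0.5 h lay above, and the others overlapped with them. It was called at no time point, and its log2 change was 0.12 ± 0.102 (SE) with an adjusted p of 0.308 at 24 h. Its relatives Igkv4-70 and Igkv4-69 were at 0.781 ± 0.117 and 0.277 ± 0.117 CPM at 0 h and at 0.891 ± 0.121 and 0.472 ± 0.0917 at 24 h. Igkv4-72, whose sequence is shown, was at 0.0216 ± 0.0305 CPM at 0 h, 1.17 ± 0.0327 at 12 h and 0.584 ± 0.0590 at 24 h, and was called higher from 2 h on.

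Igkv14-111 (chr6:68256389-68256869, plus strand) was the earliest member to be called. It was at 2.23/1.94 CPM at 0 h, 4.06/4.46 at 0.5 h, 4.84/4.37 at 1 h, 6.37/6.25 at 2 h, 9.69/11 at 6 h, 17.6/14.2 at 12 h, 15.0/15.6 at 15 h, 15.3/18.9 at 18 h, 14.6/12.6 at 21 h and, last, 11.6/11.5 at 24 h. Both 0.5 h libraries lay above both 0 h libraries, with a log2 change of 1.04 ± 0.167 (SE) with an adjusted p of 1.56e-04, and the highest levels fell at 12 to 18 h. The change was 1.60 ± 0.156 (SE) with an adjusted p of 1.44e-08 at 2 h and 2.47 ± 0.144 (SE) with an adjusted p of 7.38e-13 at 24 h. Its neighbour Igkv1-110 was at 2.03/1.91 CPM at 0 h, 2.46/2.29 at 0.5 h, 2.88/2.92 at 1 h, 4.43/5.02 at 2 h, 8.61/8.54 at 6 h, 13.7/14.7 at 12 h, 15.5/14.9 at 15 h, 16.9/16.9 at 18 h, 17.3/16.5 at 21 h and, last, 13.7/13.3 at 24 h. It was called from 2 h, at 1.26 ± 0.105 (SE) with an adjusted p of 1.24e-09, and was at 2.77 ± 0.0906 (SE) with an adjusted p of 2.65e-17 at 24 h.

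The other kappa segments started at or near 0. Igkv2-109 (chr6:68302427-68303158, plus strand) was at 0/0 CPM at 0 h, 0/0.0445 at 0.5 h, 0.0207/0.0982 at 1 h, 0.0783/0.139 at 2 h, 0.980/0.884 at 6 h, 3.59/3.14 at 12 h, 3.53/4.34 at 15 h, 5.14/5.99 at 18 h, 7.19/6.03 at 21 h and, last, 6.65/7.46 at 24 h. At 24 h it was at least 107-fold above the floor of 3 counts per 0 h library, and its share of kappa V counts went from 0 to 6.86%. Igkv1-135, the most distant member, was at 0/0 CPM at 0 h, 0/0 at 0.5 h, 0.0207/0.0491 at 1 h, 0.157/0.0925 at 2 h, 1.28/1.31 at 6 h, 0.661/0.449 at 12 h, 1.70/1.33 at 15 h, 2.08/3.23 at 18 h, 4.85/4.45 at 21 h and, last, 5.90/7.0 at 24 h. Its 12 h libraries lay below those of 6 h, and its highest values were at 24 h, at least 97.5-fold above the floor. Igkv2-107, an annotated pseudogene, reached 6.04 ± 0.703 CPM at 24 h from 0 at 0 h, at least 91.3-fold. Igkv4-73, another pseudogene, peaked earlier, with 0.0221 ± 0.000646 CPM at 0 h, 6.47 ± 0.935 at 12 h and 2.81 ± 0.175 at 24 h. It was called from 1 h on, as was Igkv4-63. Igkv10-95 was the kappa member called lower at 2 h, with 0.254 ± 0.0230 CPM at 0 h and 0.0130 ± 0.0185 at 2 h.

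Highest mean levels fell at different times in the loci. Among the 61 kappa members that changed over the time course, 40 peaked at 12 to 18 h and 20 at 21 or 24 h. Of the 36 heavy chain members that changed, 22 peaked at 21 or 24 h and 14 at 0 or 0.5 h. The filter favoured this contrast, since 46 of 63 kappa members reached 10 counts only from 6 h on. Of 47 heavy chain members, 10 reached it only from 0 to 2 h and 11 only from 6 h on. In a comparison of 24 h with 15 h, chosen after the values were seen, 10 heavy, 4 kappa and 1 lambda member were higher (3.53% of all genes) and 6 kappa members were lower (5.16%). The 10 heavy chain members all lie between Ighv1-47 and Ighv8-12, where nearly all members passed the filter through late libraries alone. Along the kappa locus, 8 of the 13 segments from Igkv2-105 to Igkv1-117 had their highest mean at 24 h. The next 9, from Igkv14-118-2 to Igkv9-129, had theirs at 12 to 18 h, with a median log2 difference between 24 h and 15 h of -0.92 against 0.53 in the former. In these 9, the summed level was 11/13.9 CPM at 18 h and 5.93/5.18 at 24 h, and in the 13 it was 51.5/58.6 at 18 h and 55.0/59.2 at 24 h. Replicates at 12 h and 18 h, where many of these peaks fall, were the least alike.

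**Figure D5:**
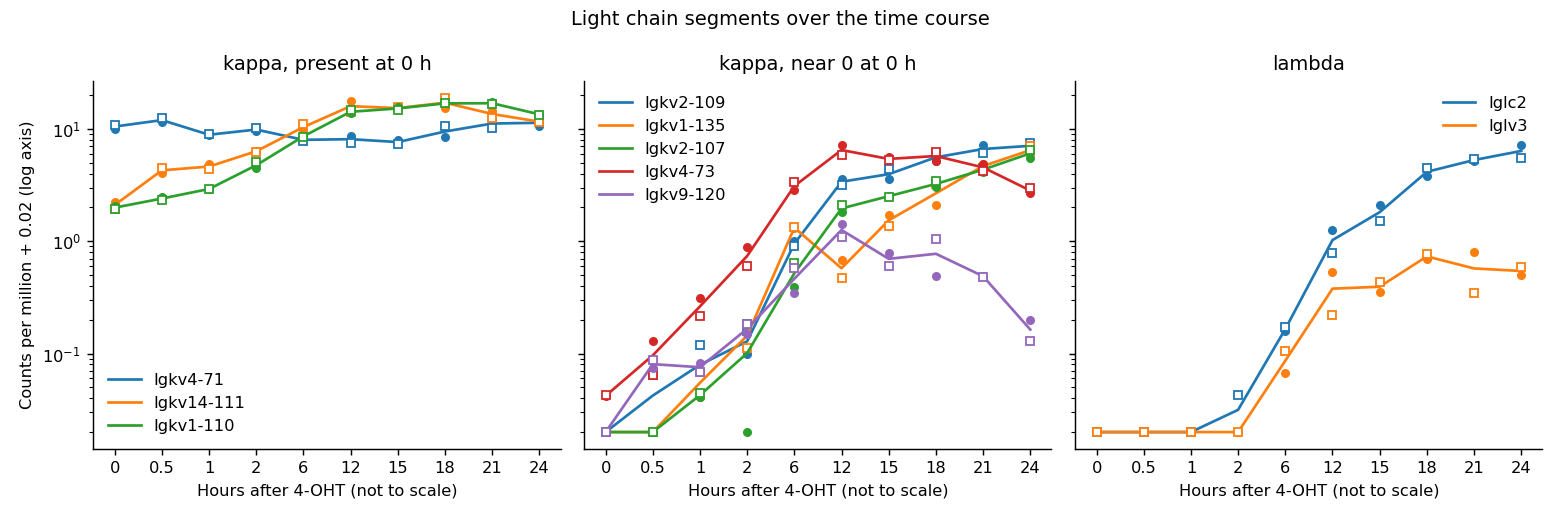
CPM + 0.02 (log axis) of light chain segments against hours after 4-OHT, with filled circles for replicate 1, open squares for replicate 2 and lines for the mean of both. On the left, Igkv4-71 stays near its starting level while Igkv14-111 and Igkv1-110 climb. In the middle, segments near 0 at 0 h climb from 1 to 6 h and part after 12 h. On the right, Iglc2 keeps climbing to 24 h and Iglv3 is highest at 18 h.

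Lambda counts appeared late. Iglc2 (chr16:19198396-19200351, minus strand), a lambda constant gene, was at 0/0 CPM at 0 h, 0/0 at 0.5 h, 0/0 at 1 h, 0/0.0231 at 2 h, 0.140/0.151 at 6 h, 1.24/0.772 at 12 h, 2.08/1.5 at 15 h, 3.77/4.50 at 18 h, 5.15/5.37 at 21 h and, last, 7.18/5.51 at 24 h. No library before 2 h held a count, and each group from 6 to 18 h lay above the one before it. At 24 h it was at least 95.9-fold above the floor of 3 counts per 0 h library. Iglv3 (chr16:19241207-19241690, minus strand), a lambda V segment, had no count before 6 h and was at 0.0664 ± 0.0280 CPM at 6 h, 0.713 ± 0.0511 at 18 h and 0.523 ± 0.0656 at 24 h (SD, n = 2). It was at least 7.91-fold above the floor at 24 h. The genes that enclose unmeasured light chain segments moved too. Gm30211 was at 0.0113 ± 0.0159 CPM at 0 h and 1.27 ± 0.104 at 24 h, and 2010309G21Rik at 0.155 ± 0.0357 and 6.05 ± 0.262.

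Genes that pair with, assemble or transcribe the immunoglobulin loci were, both directions together, called no more often than all genes at 24 h. Those named below were picked for having the largest changes. Of 43 such genes tested, 10 were higher and 6 lower at 24 h, with a median log2 change of 0.27 (20% and 20.1% of all genes, median -0.01). Among receptor partners, Igll1 and Vpreb1, components of the surrogate light chain, fell while light chain segments rose. Igll1 went from 169 ± 2.08 CPM at 0 h to 10.1 ± 0.770 at 2 h and 0.984 ± 0.126 at 24 h (SD, n = 2), a log2 change of -7.42 ± 0.0973 (SE) with an adjusted p of 9.11e-24. Vpreb1 went from 17.6 ± 1.01 to 0.370 ± 0.0246 CPM, a log2 change of -5.56 ± 0.156 (SE) with an adjusted p of 1.76e-18. Cd79b, a signalling chain of the receptor, rose from 15.5 ± 0.735 to 75.9 ± 3.65 CPM, a log2 change of 2.29 ± 0.0853 (SE) with an adjusted p of 2.69e-16.

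Of 12 recombination genes tested, 5 rose and 2 fell at 24 h. Lig4 and Polm, a ligase and a polymerase of end joining, were at log2 changes of 2.58 ± 0.106 (SE) with an adjusted p of 1.48e-15 and 2.56 ± 0.0950 (SE) with an adjusted p of 2.52e-16, and Xrcc5, the Ku80 subunit, was at -1.21 ± 0.0359 (SE) with an adjusted p of 4.79e-18. Of 25 transcription and chromatin factors known to act at these loci, 3 rose and 1 fell, smaller shares than among all genes. Foxo1, an activator of the Rag genes, was at 2.73 ± 0.0420 (SE) with an adjusted p of 8.81e-23, and Ikzf3, a relative of Ikzf1, was at -3.03 ± 0.0885 (SE) with an adjusted p of 3.53e-18.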

How the data were processed

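Chromatin-associated RNA was prepared after urea lysis, depleted of ribosomal RNA and made into libraries with a directional kit. The deposited values are counts per gene, which the authors made with the nf-core/rnaseq workflow (STAR, mm10) and featureCounts, intronic reads included. The submitters' processing notes also list CASAVA 2.17. Raw counts of 56239 genes were used as deposited, and positions and sequences were taken from GENCODE M21 (GRCm38).

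Genes with 10 or more counts in at least 2 of 20 libraries (16601) were tested in R 4.3.3 with edgeR 4.0.16 (TMM scaling, quasi-likelihood F-test, time as a factor over all libraries, Benjamini-Hochberg adjustment). A call needed an adjusted p under 0.01 and a fold change above 2. DESeq2 1.42.0 was an alternative. In simulated counts of the 24 h comparison, run on 16015 genes, 97.7% of genes changed by 1.5 on the log2 scale and 100% of those changed by 2 were recovered, with 0 false calls. The changed genes were drawn only from genes with mean levels above those of most members. The recovery therefore does not cover most members. Sums, ratios and fold bounds were given with no test.

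The labels do not say whether replicates came from separate cultures, so p-values measure only the spread between these libraries, which may be technical. Same-numbered libraries were not treated as pairs. Over 45 pairs of time points the correlation of their deviations ran from -0.532 to 0.31, with a mean of 0.00673, and was above 0.1 in 7. The 12 h and 18 h libraries were left out in an alternative chosen after seeing the data.

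Members and gene lists were chosen with earlier results of these data known. The genes named were the constant and J genes that passed, the 5 V segments of each locus with the highest mean, the 3 largest rises and falls at 24 h averaging 0.5 CPM or more, and the 4 largest rises and falls of the assembly list. Other segments named, including the bounds of stretches, relatives of named segments and early calls, were chosen after their values were seen.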

Additional observations from a re-analysis of the deposited data

Results flagged for a closer look

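The course between 15 h and 24 h differed among members that had been called higher by 24 h, which was looked at because the kappa sum levelled off while the heavy chain and lambda sums were higher at 24 h than at 15 h. Against 15 h, 10 of 47 heavy chain members, 4 of 63 kappa members and 1 lambda member were higher at 24 h (3.53% of all genes). Another 6 kappa members were lower (5.16% of all genes), by edgeR with Benjamini-Hochberg adjustment over all genes tested. The log2 changes from 15 h to 24 h were 3.58 for Ighv8-7 (adjusted p = 4.16e-10), 2.61 for Ighv1-69 (6.16e-07) and 2.26 for Ighv1-47 (2.88e-06). They were 2.09 for Igkv1-135 (adjusted p = 5.86e-09), 1.28 for Igkv2-107 (1.87e-06) and 1.82 for Iglc2 (7.70e-08). All members named here reached 10 counts only in libraries from 6 h on, so the filter favoured late rises among them. The difference between the loci themselves was not tested.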

How the results depend on the processing

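No result reversed under the alternatives run. A filter of 10 or more counts in every library left 18 of the 112 members to test, and one of 10 or more counts on average left 67, so fewer could be called. Under the first, 14 members changed over the time course, 2 were higher at 2 h, 12 were higher at 24 h and 0 were lower at 2 h or at 24 h. Under the second, 58 changed, 48 were higher at 24 h, and 3 were lower at 2 h and 3 at 24 h. A test against a 2-fold change gave 6 higher and 5 lower members at 2 h, and DESeq2 gave 5 lower. The cause was not tested.

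With 1 library left out at a time, 97 to 100 members changed over the time course, 8 to 14 were higher and 7 to 8 lower at 2 h, and 68 to 71 were higher and 7 to 8 lower at 24 h. The log2 changes at 24 h of the sums then ran from 1.60 to 1.68 (heavy), 2.48 to 2.58 (kappa) and 8.35 to 9.51 (lambda), and those of the ratios from 0.80 to 0.98 (kappa to heavy), 6.71 to 7.83 (lambda to heavy) and 5.82 to 7.02 (lambda to kappa). Without the second 24 h library the kappa to heavy change was 0.80. Without the first 0 h library the lambda values had no base, since the second held no count.

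By library totals alone, which moved the median of all genes by -0.26, the log2 changes of the sums were 1.38 (heavy), 2.27 (kappa) and 9.09 (lambda). Over V segments alone, the heavy sum changed by 0.95, the lambda sum by 5.98, and the ratios by 1.58 (kappa to heavy), 5.04 (lambda to heavy) and 3.44 (lambda to kappa). Without the gene with most counts in each locus, these 5 values were 1.3, 6.04, 1.24, 4.75 and 3.48. A replicate block gave 99 changed members, 19 higher at 2 h and 73 at 24 h, and lambda counts of 0 or 1 at 0 h limit every lambda fold.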
